A study of Mus musculus with 18 samples.

Results

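The 34 genes described here are 27 immediate early genes and 7 heat shock genes, taken by symbol from a bulk RNA sequencing table of 55291 genes in 18 libraries of mouse subcutaneous tumours. All 34 were among the 16816 genes tested, which had at least 1 TPM in at least 3 libraries. TPM is a relative transcript abundance corrected for length, so levels of different genes can be set side by side. Of the 34 genes, 31 were at 1 TPM or more in every library and none was listed at 0. The lowest value was 0.332 TPM, for Nr4a3 in an LL2 tumour given OK-432, and the highest was 2915 TPM, for Hspa8 in an LL2 control.

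Tumours came from LL/2 cells (LL2, also known as Lewis lung carcinoma, from a C57BL mouse), CT26-NY-ESO-1 cells (CT26NYESO1, whose name gives NY-ESO-1, a human cancer-testis antigen) or CT26 cells (colon carcinoma, from a BALB/c mouse), inoculated under the skin of BALB/cJ or C57BL/6J mice, with no statement of which strain carried which line. Each line had 3 libraries from tumours given OK-432 (OK432) and 3 from tumours without it (Ctrl), which makes 6 groups of 3. OK-432 is a killed, freeze-dried preparation of Streptococcus pyogenes, and it was put into the tumour for 24 hours before collection on day 14. RNA was extracted with TRIzol. The sources used here do not give the age of the mice, what was put into control tumours, how the NY-ESO-1 line was derived or whether the 3 libraries of a group came from 3 mice. The p-values therefore weigh differences against library spread alone, and part of it may be technical. The labels name the material as tumour microenvironment and give no sort, so tumour and host cells are read together. The number of reads behind each TPM value is unknown, so no counting error is given.

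Immediate early genes are switched on within minutes of a stimulus without new protein synthesis. Growth factor and stress signals reach them through the MAP kinases, which act on serum response factor with its ternary complex partners at the CArG box, and on CREB and ATF proteins at the cyclic AMP response element (CRE). Many of their products are transcription factors such as FOS, JUN and EGR proteins, and others end the signal: DUSP phosphatases remove phosphate from MAP kinases, and ZFP36 speeds the decay of short-lived mRNAs. Heat shock genes are driven by HSF1, which trimerises on unfolded protein and binds repeats of the sequence GAA in the heat shock element, and they encode chaperones that refold proteins. Both groups are also known to respond to tissue handling, lack of oxygen and inflammation.

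The promoters are shown because Hspa1a and Hspa1b, the inducible HSP70 genes, had the largest OK432 differences of the 34 genes in CT26NYESO1 tumours (but not without replicate 3, where Ier3 led), and their reads are hard to tell apart. The longest open reading frames of their transcripts measured 1926 bases for Hspa1a and 1929 bases for Hspa1b, of which 1919 were identical, so reads may have been split between the copies and the sum is given beside each value. The 250 bases before the start site, from RefSeq promoters on GRCm38.p6, differ at 3 bases, which are in capitals (Hspa1a at chr17:34972157-34972406, minus strand; Hspa1b at chr17:34959239-34959488, minus strand).
Hspa1a: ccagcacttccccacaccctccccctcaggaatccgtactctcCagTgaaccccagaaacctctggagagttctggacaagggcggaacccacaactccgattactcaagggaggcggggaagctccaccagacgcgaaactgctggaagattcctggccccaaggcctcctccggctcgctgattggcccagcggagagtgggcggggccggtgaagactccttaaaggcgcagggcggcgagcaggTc
Hspa1b: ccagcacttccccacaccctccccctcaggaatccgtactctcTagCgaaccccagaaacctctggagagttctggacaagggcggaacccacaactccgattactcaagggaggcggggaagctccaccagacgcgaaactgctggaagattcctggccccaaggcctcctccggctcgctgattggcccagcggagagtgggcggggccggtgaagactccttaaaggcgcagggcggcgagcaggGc
Both hold GAANNTTC, a pair of heat shock element units, at 104 bases before the start site. This motif was chosen after the sequences were seen. It is in 6 of the 27 genes of the panel that have a RefSeq promoter and in 7.86% of all 32851 promoters of 300 bases (250 before to 50 after a start site). A gene counted if any of its promoters matched, while the share is of single promoters, so the units are unlike.

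The CRE, TGACGTCA, was found on either strand in 4 of the 27 genes against 1.79% of all promoters, and the CArG box in 3 of 27 against 1.63%. Here too a gene counted if any of its promoters matched. Egr2, Maff, Hsph1 and Dnajb1 have several promoters, which raises the count of genes against the share of single promoters. The AP-1 site TGANTCA was in 0 of 27 against 7.81% of all promoters, TATAAA in 5 against 13.62%, and the 3-unit heat shock element (GAA, TTC and GAA with 2 bases between units, on either strand) in 1, Hsph1, against 0.6%. The matched windows are given with the motif in capitals, and a match is a run of letters, not a shown binding site. The first 4 hold the CRE, in Dusp1 (chr17:26508582-26508641, minus strand), Ppp1r15a (chr7:45526247-45526306, minus strand), Btg2 (chr1:134079288-134079347, minus strand) and Maff (chr15:79347465-79347524, plus strand).
Dusp1: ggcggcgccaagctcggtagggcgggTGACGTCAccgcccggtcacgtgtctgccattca
Ppp1r15a: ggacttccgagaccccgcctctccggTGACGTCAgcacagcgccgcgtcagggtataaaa
Btg2: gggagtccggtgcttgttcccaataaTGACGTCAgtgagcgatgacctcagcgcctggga
Maff: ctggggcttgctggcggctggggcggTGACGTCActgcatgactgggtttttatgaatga
The next 3 hold a CArG box, in Egr2 (chr10:67537468-67537529, plus strand), Zfp36 (chr7:28379251-28379312, minus strand) and Dusp5 (chr19:53529037-53529108, plus strand), where 2 boxes adjoin, and the last holds the heat shock element of Hsph1 (chr5:149636280-149636308, minus strand).
Egr2: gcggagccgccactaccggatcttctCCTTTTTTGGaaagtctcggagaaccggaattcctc
Zfp36: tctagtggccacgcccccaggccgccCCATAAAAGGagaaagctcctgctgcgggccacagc
Dusp5: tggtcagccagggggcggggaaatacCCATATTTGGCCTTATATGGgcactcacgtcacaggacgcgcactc
Hsph1: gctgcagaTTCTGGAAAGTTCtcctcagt

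Libraries within a group were not alike. CT26NYESO1 OK432 replicate 2 was the lowest of its group for 22 of the 34 genes (64.7%, against 31.8% of all tested genes). Its summed neutrophil markers came to 161 TPM, against 912 and 677 TPM in replicates 1 and 3 of that group, and its summed hypoxia genes to 4410.2 TPM, against 6151 and 6776 TPM. LL2 OK432 replicate 3 was the highest of its group for 30 of the 34 genes (88.2%, against 38.1% of all tested genes), and also had the highest neutrophil, hypoxia and skeletal muscle sums of its group, at 352, 3327 and 455 TPM. CT26NYESO1 OK432 replicate 3 was the highest of its group for 21 genes (61.8%, against 23.6% of all tested genes), and CT26NYESO1 Ctrl replicate 3 for 22 (64.7%, against 28.2%). S100a8, an abundant neutrophil transcript, was 183, 19.6 and 123 TPM in CT26NYESO1 tumours with OK432 and 1.54, 1.9 and 3.32 TPM in their controls. Mitochondrial transcripts took 4.16% to 7.48% of each library. Of 16 neutrophil markers, Ly6g, Ngp, Camp and Ltf stayed under 1 TPM in all 18 libraries. Of the epithelial markers checked for a colon carcinoma line, Epcam and Vil1 stayed under 1 TPM in all 18, and the 8 markers together summed to 382 to 577 TPM in LL2, 18.5 to 33.1 TPM in CT26NYESO1 and 7.87 to 10.6 TPM in CT26 libraries. Only 4 of the 8 were among the genes tested. In the test between control tumours given below, only Krt8 and Krt18 of these were called higher in LL2 than in CT26 and than in CT26NYESO1.

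**Figure D1:**
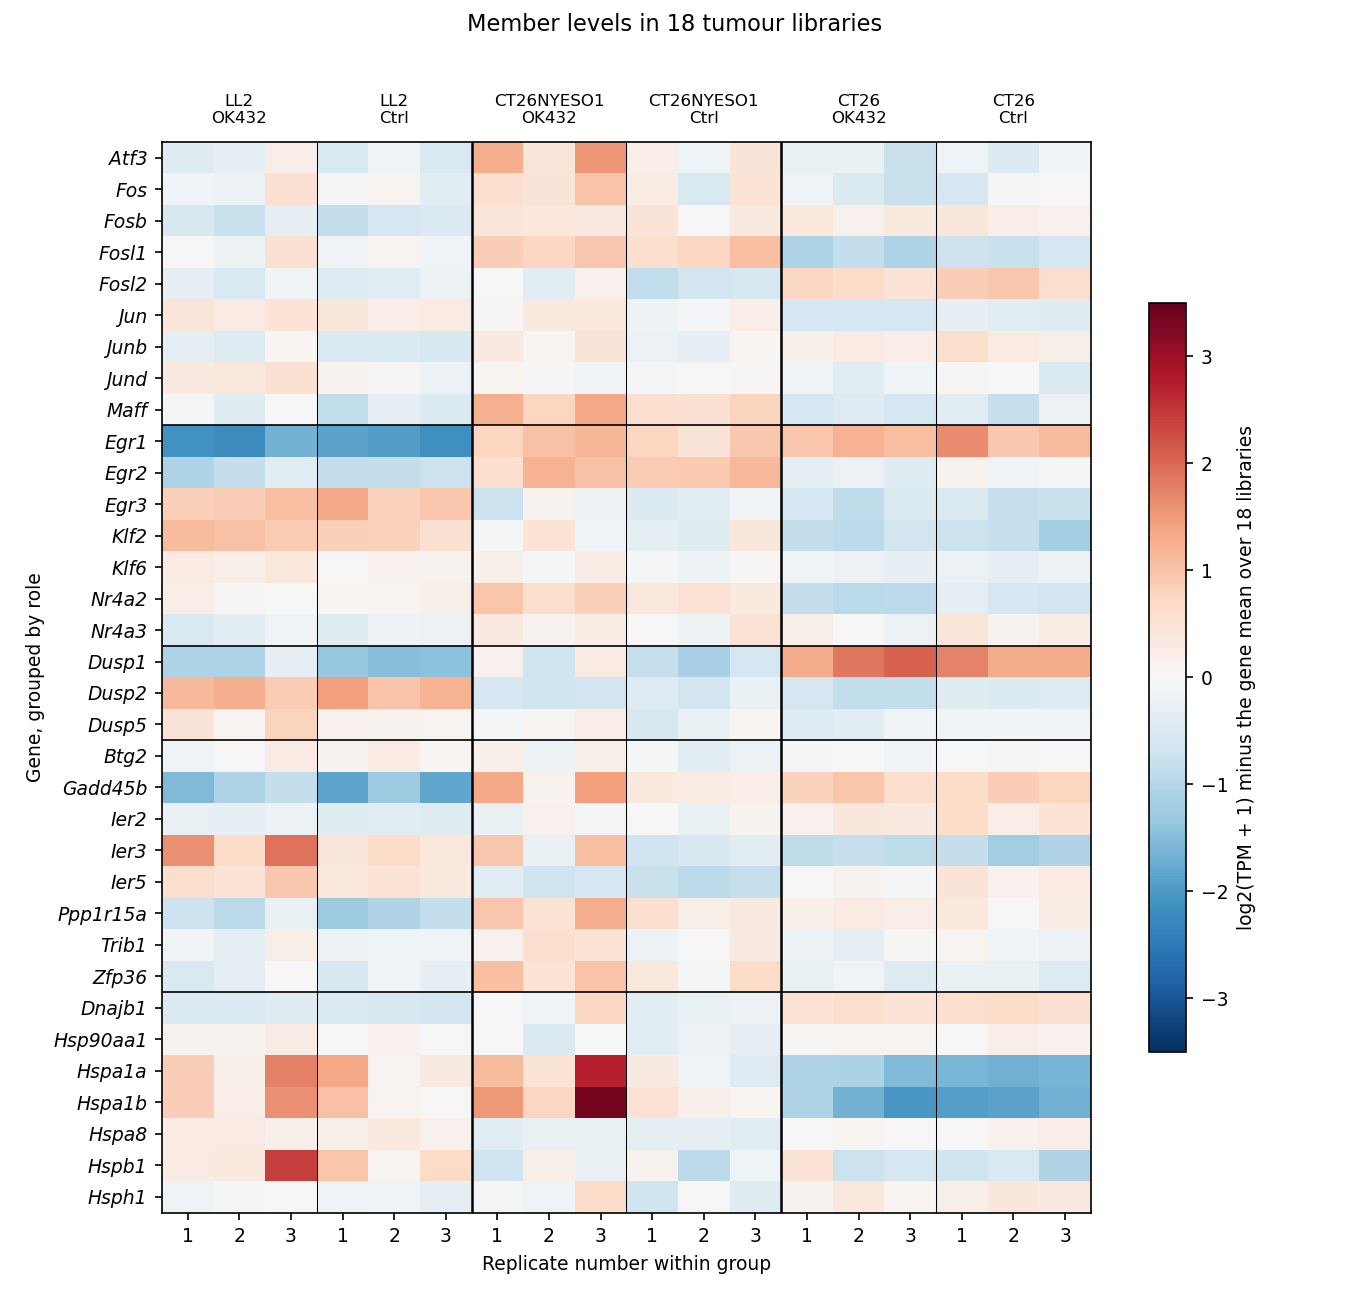
Level of each of the 34 genes (rows, grouped by role) in the 18 libraries (columns, by line, with OK432 left of Ctrl), as log2(TPM + 1) minus the gene's mean over the 18 libraries. Blocks of colour follow the tumour line for Egr1, Dusp1, Gadd45b, Dusp2 and the Hspa1 genes, and Hspa1a and Hspa1b stand out in CT26NYESO1 OK432 replicate 3.

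The first comparison asks whether these genes differed after 24 hours of OK-432. Hspa1a and Hspa1b, Ier3 (a stress-induced regulator of survival), Atf3 (a stress-induced bZIP repressor) and Dusp1 (a phosphatase of p38, JNK and ERK) had the 5 largest differences in CT26NYESO1 tumours, all of them higher with OK432. Ier3 and Dusp1 also led in LL2 tumours. In bulk RNA a change in the number of cells of a type and a change in RNA per cell cannot be told apart. None of the 34 genes passed the test: limma called 0 of 34 in CT26NYESO1, LL2 and CT26 tumours and in the average of the 3 effects. Among all genes tested, limma called 0.666% in CT26NYESO1 (112 genes, 0.410% higher and 0.256% lower), 0.0178% in LL2 (3 genes, 0.0119% higher and 0.00595% lower), 0.00% in CT26 (0 genes) and 0.172% in the average (29 genes, 0.167% higher and 0.00595% lower), at a Benjamini-Hochberg adjusted p under 0.05. At an unadjusted p under 0.05 the members numbered 20 of 34 in CT26NYESO1 (16.2% of all genes), 6 in LL2 (5.26%), 4 in CT26 (4.10%) and 10 in the average (10.3%).

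The lean of the differences varied by line. The median log2 difference of the 34 genes, on the log2(TPM + 1) scale, was 0.16 in LL2, 0.31 in CT26NYESO1 and −0.10 in CT26 tumours, beside medians of all tested genes of −0.01, −0.02 and 0.00037. Differences were above 0 for 28, 30 and 12 of the 34 genes in the same order of lines, and for 44.8%, 43.5% and 50.1% of all tested genes. LL2 OK432 replicate 3 was the highest of its group for 30 of the 34 genes (88.2%, against 38.1% of all tested genes). CT26 Ctrl replicate 1 was so for 19 (55.9%, against 33.3%). The part of these single libraries in the lean was not tested. In LL2, 8 genes had every OK432 library above every control (Junb, Jund, Klf2, Klf6, Dusp1, Ier2, Ier3 and Dnajb1) and 0 had every one below, while 4.70% of all tested genes were fully above and 5.17% fully below. In CT26NYESO1, 8 were fully above (Fosl2, Junb, Nr4a2, Ier3, Ier5, Hspa1a, Hspa1b and Dnajb1) and 0 below, beside 7.14% and 9.84% of all genes. In CT26, 1 was fully above (Hspa1a) and 6 fully below (Fosl1, Jun, Egr2, Nr4a2, Dusp2 and Ier5), beside 4.79% and 5.10%. Junb, Ier3 and Dnajb1 were thus fully above in both LL2 and CT26NYESO1, and none of the 34 genes was so in all 3 lines.

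**Figure D2:**
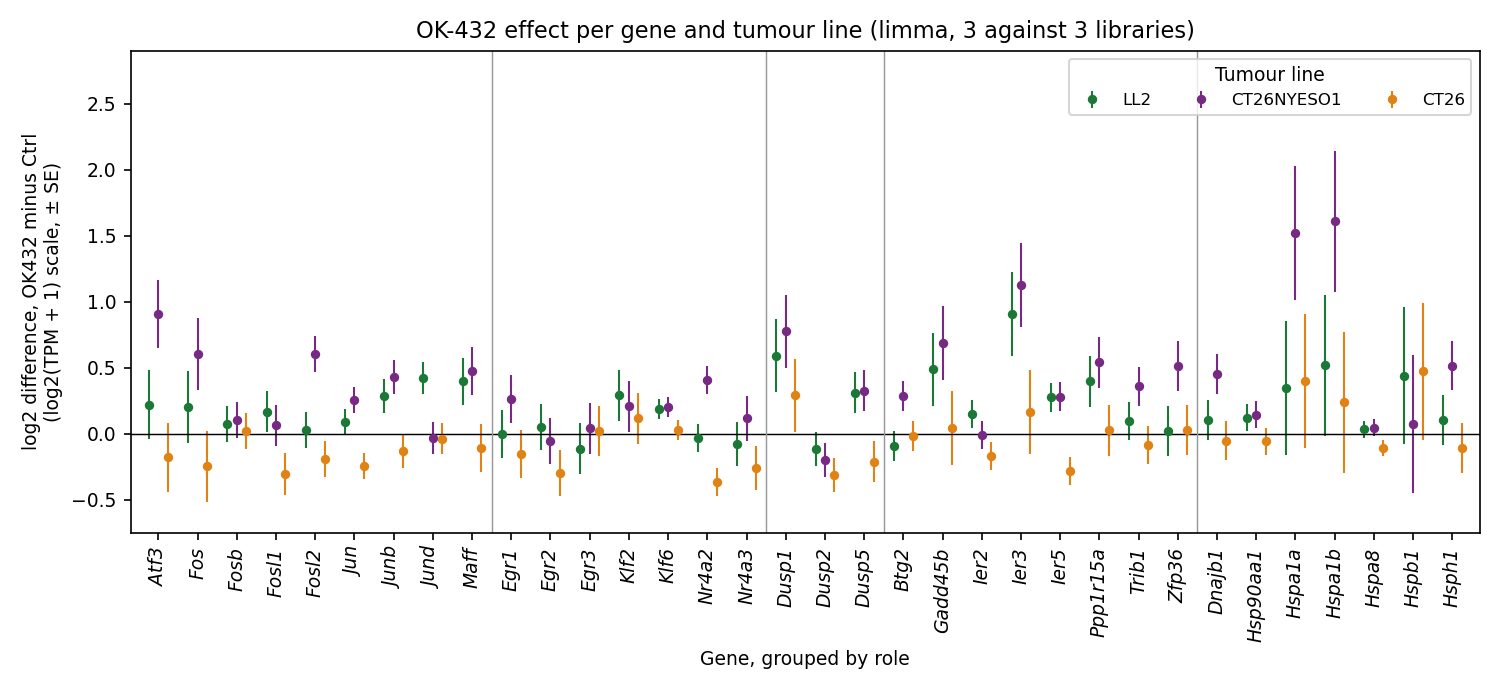
Log2 difference between OK432 and Ctrl (log2(TPM + 1) scale) for each gene in LL2, CT26NYESO1 and CT26 tumours, as the limma estimate with its standard error. Most CT26NYESO1 points lie above 0, up to 1.61 for Hspa1b, most CT26 points lie below 0, and none of the points passed the test after adjustment.

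Leaving out CT26NYESO1 OK432 replicate 2 changed these counts. That library was the lowest of its group for 22 of the 34 genes, so leaving it out raises the differences of those genes by construction. The calls gained in this way are no independent support for an OK432 effect. The same holds wherever a value without this library is given. Without it, limma called 14 of the 34 genes higher with OK432 in CT26NYESO1, where it called 2.34% of all genes higher: Atf3, Fosl2, Junb, Klf6, Nr4a2, Dusp1, Btg2, Gadd45b, Ier3, Ppp1r15a, Dnajb1, Hsp90aa1, Hspa1a and Hspa1b. Maff (log2 difference 0.66, adjusted p = 0.0508) and Zfp36 (0.69, 0.0559) came just short in that limma fit. The average over the 3 lines then held 3 calls, Dusp1, Gadd45b and Ier3, where 0.755% of all genes were called higher. Without replicate 1 or replicate 3 of the same group, limma called 0 of the 34, with 0.256% and 0.0178% of all genes called higher. The part that the lower neutrophil and hypoxia sums of replicate 2 have in this was not tested.

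Among the 9 AP-1 subunits and partners, 6 had an unadjusted p under 0.05 in CT26NYESO1 (16.2% of all genes), 3 in LL2 (5.26%) and 1 in CT26 (4.10%). Atf3 was 23.5, 12.8 and 28.7 TPM in CT26NYESO1 tumours with OK432, against 11, 8.15 and 12.9 TPM in controls, a log2 difference of 0.91 ± 0.26 (SE; limma adjusted p = 0.105, and 0.00756 without replicate 2). Replicate 2 lay inside the control range. In LL2 it was 6.69, 7.04 and 10.9 TPM with OK432 and 6.07, 8.35 and 6.07 TPM in controls, and in CT26 7.53, 7.79 and 4.94 TPM with OK432 and 8.17, 6.38 and 8.54 TPM in controls, with overlapping groups in both lines. Fosl2, the FRA-2 subunit (chr5:32135801-32157842, plus strand on mm10), came nearest to a call: 56.2, 42.4 and 62 TPM with OK432 in CT26NYESO1, against 30.5, 35.5 and 37.5 TPM in controls (0.61 ± 0.14; limma adjusted p = 0.0522). The 3 treated libraries were above the 3 controls. With a filter of 5 TPM in at least 3 libraries the adjusted p of Fosl2 was 0.0487, and without LL2 OK432 replicate 3, which enters through the shared spread, it was also 0.0487. In CT26, Fosl2 was 92.3, 87.4 and 78.3 TPM with OK432 and 101, 108 and 86.2 TPM in controls.

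Junb, a JUN partner with weaker transactivation than JUN, was 177, 152 and 194 TPM with OK432 in CT26NYESO1, against 123, 116 and 149 TPM in controls (0.43 ± 0.13, limma adjusted p = 0.118), and 113, 104 and 147 TPM with OK432 against 98.4, 101 and 95.4 TPM in controls of LL2 (0.28 ± 0.13). Both lines had every treated library above the controls. Fos itself, the founding immediate early gene, was 19.6, 18.2 and 26.8 TPM with OK432 in CT26NYESO1 and 15.9, 8.62 and 18.4 TPM in controls (0.60 ± 0.27, limma adjusted p = 0.285), with overlap. In CT26, Jun and Fosl1 lay lower in every treated library: Fosl1, the FRA-1 subunit, was 35.2, 42.6 and 35.2 TPM with OK432 against 45.7, 44.4 and 49.7 TPM in controls (−0.30 ± 0.16). Fosb, Jund and Maff had log2 differences between −0.11 (Maff in CT26) and 0.48 (Maff in CT26NYESO1).

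Of the 7 EGR, NR4A and KLF factors, Nr4a2 (an orphan nuclear receptor) and Klf6 had an unadjusted p under 0.05 in CT26NYESO1 (16.2% of all genes). In LL2 1 of the 7 did so (5.26% of all genes), and in CT26 1 (4.10%). Nr4a2 was 16, 12.4 and 14.6 TPM with OK432, against 10.3, 11.3 and 9.99 TPM in CT26NYESO1 controls (0.40 ± 0.10, limma adjusted p = 0.0752). In CT26 it was 3.88, 3.56 and 3.57 TPM with OK432 against 5.84, 4.78 and 4.49 TPM in controls (−0.36 ± 0.10, adjusted p = 0.872), and in LL2 9.17, 8.0 and 7.77 TPM with OK432 against 8.12, 8.32 and 9.11 TPM in controls. The groups were apart in opposite directions in CT26NYESO1 and CT26 and overlapped in LL2. Egr1, a zinc finger factor and one of the fastest genes of the class, was 52.9, 64.5 and 70.3 TPM with OK432 in CT26NYESO1 against 53, 42.8 and 60.7 TPM in controls (0.26 ± 0.18), and its difference was near 0 in LL2 and −0.15 in CT26. Egr2, Egr3, Klf2, Klf6 and Nr4a3 had log2 differences between −0.29 (Egr2 in CT26) and 0.29 (Klf2 in LL2).

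Of the 3 MAP kinase phosphatases, 1 had an unadjusted p under 0.05 in CT26NYESO1 (16.2% of all genes), 0 in LL2 (5.26%) and 1 in CT26 (4.10%). Dusp1 was 31.4, 16.9 and 34.7 TPM with OK432 in CT26NYESO1, against 15.5, 12.2 and 17.8 TPM in controls (0.78 ± 0.28, limma adjusted p = 0.182). It was 12.6, 12.6 and 22.8 TPM with OK432 in LL2 against 10.6, 9.4 and 9.69 TPM in controls (0.59 ± 0.28), and 70.3, 102 and 120.3 TPM with OK432 against 94.8, 69.7 and 70.9 TPM in controls of CT26 (0.29 ± 0.28). Only the LL2 groups were apart, and there replicate 3 was the highest. Dusp2, which acts on ERK and p38 in the nucleus and is known from immune cells, was 5.46, 4.3 and 4.35 TPM with OK432 in CT26 against 6.18, 5.99 and 6.02 TPM in controls (−0.31 ± 0.13), and its difference was below 0 in all 3 lines. Dusp5, an ERK phosphatase of the nucleus, had a log2 difference of 0.31 in LL2, 0.33 in CT26NYESO1 and −0.21 in CT26.

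Of the 8 other immediate early regulators, 7 had an unadjusted p under 0.05 in CT26NYESO1 (16.2% of all genes), 2 in LL2 (5.26%) and 1 in CT26 (4.10%). Ier3 had the largest difference in CT26NYESO1. Ier3 (chr17:35821684-35822923, plus strand) was 143, 62.8 and 153 TPM with OK432 against 45.6, 50.4 and 56.1 TPM in CT26NYESO1 controls (1.12 ± 0.32, limma adjusted p = 0.111). In LL2 it was 227, 117 and 278 TPM with OK432 against 98, 117 and 96.6 TPM in controls (0.91 ± 0.32, adjusted p = 0.80), and in CT26 39.5, 41.7 and 39.4 TPM with OK432 against 41.5, 31.2 and 35.1 TPM in controls (0.17 ± 0.32). The LL2 and CT26NYESO1 groups were apart, although replicate 2 of each treated group was close to the controls. In the average over lines Ier3 was 0.73 ± 0.18 (adjusted p = 0.223), and limma called it without LL2 OK432 replicate 2 (0.86, adjusted p = 0.0447) or CT26NYESO1 OK432 replicate 2 (0.87, 0.00741).

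Gadd45b, a stress sensor that activates p38 through MEKK4, was 57.3, 24.3 and 61.3 TPM with OK432 in CT26NYESO1 against 28.5, 26.8 and 25.9 TPM in controls (0.69 ± 0.28, limma adjusted p = 0.233): replicates 1 and 3 were above the controls and replicate 2 below them. In LL2 it was 6.83, 9.84 and 12 TPM with OK432 against 5.42, 8.54 and 5.54 TPM in controls (0.49 ± 0.28). Ppp1r15a, the GADD34 subunit that returns eIF2 alpha to its active form, was 67.6, 48.6 and 86.3 TPM with OK432 in CT26NYESO1 against 52, 40.2 and 43.3 TPM in controls (0.54 ± 0.19). Zfp36 was 63.8, 42.6 and 61.1 TPM with OK432 against 39.5, 29.3 and 48.3 TPM in controls of the same line (0.51 ± 0.19). Btg2, Ier2, Ier5 and Trib1 had log2 differences between −0.28 (Ier5 in CT26) and 0.36 (Trib1 in CT26NYESO1).

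Of the 7 heat shock genes, 4 had an unadjusted p under 0.05 in CT26NYESO1 (16.2% of all genes), 0 in LL2 (5.26%) and 0 in CT26 (4.10%). Hspa1b was 26.9, 15.5 and 98.9 TPM with OK432 in CT26NYESO1 against 12.9, 10.1 and 9.52 TPM in controls (1.61 ± 0.54, limma adjusted p = 0.162), and Hspa1a was 12.3, 7.65 and 39.5 TPM with OK432 against 6.7, 4.66 and 3.54 TPM in controls (1.52 ± 0.51, 0.159). Summed, the copies gave 39.2, 23.2 and 138 TPM with OK432 against 19.6, 14.8 and 13.1 TPM in controls (1.63 ± 0.55, 0.165). All treated libraries were above the controls, and replicate 3 stood far above the rest. Without it the differences were 0.87 for Hspa1b and 0.88 for Hspa1a. In LL2 the sum was 27, 16.4 and 48.6 TPM with OK432 against 33.7, 15 and 15.5 TPM in controls, with overlap, and in CT26 5.53, 3.98 and 2.49 TPM with OK432 against 2.61, 2.58 and 3.0 TPM in controls. Hspa1a alone was 1.93, 1.89 and 1.11 TPM with OK432 in CT26 and 1.03, 0.919 and 0.982 TPM in controls, apart, with every library under 2 TPM.

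Dnajb1, the HSP40 partner of HSP70, was 57.4, 51.5 and 96.6 TPM with OK432 in CT26NYESO1 against 44.9, 49.3 and 49.8 TPM in controls (0.45 ± 0.15, limma adjusted p = 0.153), with replicate 3 the highest again and a difference of 0.18 without it. Hsph1, the HSP110 exchange factor, was 108, 104 and 179 TPM with OK432 against 69.9, 115 and 84.7 TPM in controls there (0.52 ± 0.19, and 0.27 without replicate 3), and overlapped. The small heat shock protein gene Hspb1 was 8.82, 9.24 and 42.4 TPM with OK432 in LL2 against 14.8, 7.54 and 12 TPM in controls (0.44 ± 0.52): replicate 3 alone was above the controls, and without it the difference was −0.26. In CT26, Hspb1 was 10.3, 3.8 and 4.31 TPM with OK432 against 3.95, 4.6 and 2.88 TPM in controls (0.47 ± 0.52), again with 1 library above the rest, without which the difference was 0.086. That library, CT26 OK432 replicate 1, had summed muscle markers of 169 TPM, against 3.35 to 23.2 TPM in the other CT26 libraries, and the part of this was not tested. Hspa8, the constitutive HSC70, and Hsp90aa1 had log2 differences between −0.11 and 0.15.

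**Figure D3:**
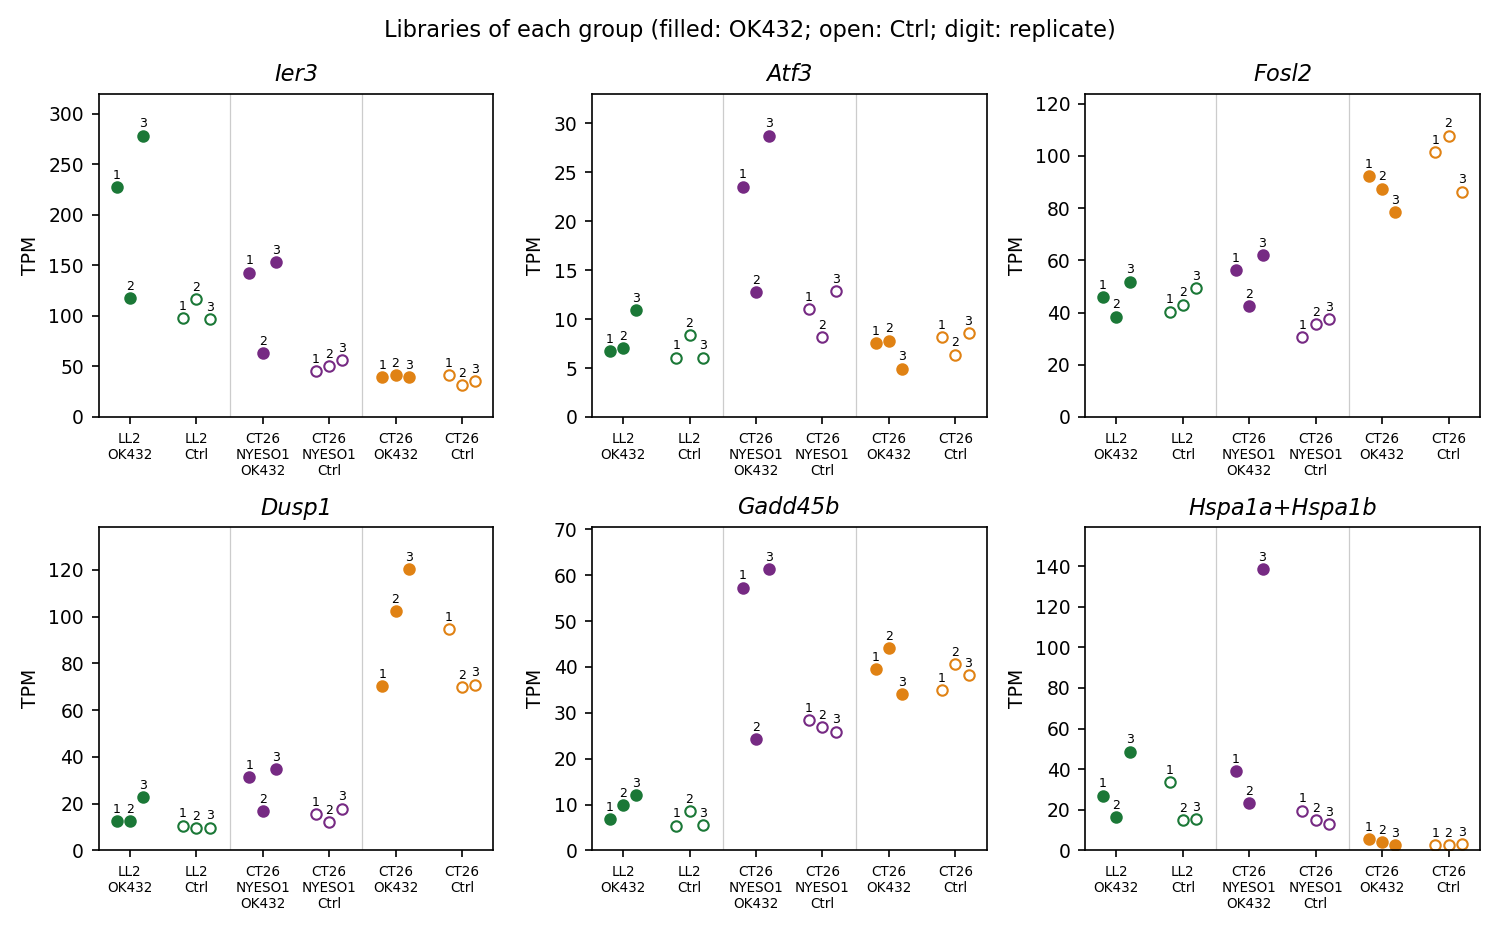
TPM of Ier3, Atf3, Fosl2, Dusp1, Gadd45b and the summed Hspa1a and Hspa1b in each library, with OK432 as filled points left of Ctrl as open points and the replicate number above each point. In CT26NYESO1, OK432 replicate 2 sits nearest to the controls for each of the 6 measures, and replicate 3 reaches 138 TPM for the Hspa1 sum.

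Whether the OK-432 effect differed between lines was tested directly, and none of the 34 genes passed. For the effect in CT26NYESO1 minus that in CT26, limma called 0.00% of all genes, for LL2 minus CT26 0.00595% (1 gene) and for LL2 minus CT26NYESO1 0.00595% (1 gene). At an unadjusted p under 0.05 the members numbered 12 of 34 for CT26NYESO1 minus CT26 (8.84% of all genes), 8 for LL2 minus CT26 (4.89%) and 4 for LL2 minus CT26NYESO1 (8.81%). The effect was larger in CT26NYESO1 than in CT26 for 33 of the 34 genes, where 44.3% of all genes were, with a median difference of 0.48. Nr4a2 differed by 0.77 ± 0.15 (limma adjusted p = 0.231), Fosl2 by 0.80 ± 0.19 (0.393) and Atf3 by 1.08 ± 0.37 (0.469). Without CT26NYESO1 OK432 replicate 2, limma called Nr4a2 (0.86, adjusted p = 0.0194) and Fosl2 (0.95, 0.0251), and 99 genes in all.

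The mean log2 level of the 27 immediate early genes, as a description, was 4.52, 4.43 and 4.82 with OK432 and 4.37, 4.46 and 4.37 in controls of LL2, 5.0, 4.83 and 5.14 with OK432 and 4.61, 4.50 and 4.83 in controls of CT26NYESO1, and 4.51, 4.52 and 4.47 with OK432 and 4.71, 4.54 and 4.56 in controls of CT26. The mean of the 7 heat shock genes was 6.29, 6.13 and 6.88 with OK432 and 6.46, 6.06 and 6.07 in LL2 controls, 6.25, 6.10 and 7.04 with OK432 and 5.92, 5.82 and 5.78 in controls of CT26NYESO1, and 5.89, 5.71 and 5.53 with OK432 and 5.55, 5.66 and 5.59 in controls of CT26. The highest library of both means is CT26NYESO1 OK432 replicate 3. Limma called 6 of the 12 tested neutrophil markers higher with OK432 in CT26NYESO1 and 0 of 12 in LL2 and CT26. Of all genes, it called 0.410% higher in CT26NYESO1, 0.0119% in LL2 and 0.00% in CT26. At an unadjusted p under 0.05 in limma the markers numbered 11 of 12 in CT26NYESO1 (16.2% of all genes), 7 in LL2 (5.26%) and 5 in CT26 (4.10%). The 16 markers summed to 206, 209 and 352 TPM with OK432 and 65.5, 80.7 and 65.9 TPM in LL2 controls, 912, 161 and 677 TPM with OK432 and 63.2, 55.4 and 83.2 TPM in controls of CT26NYESO1, and 245, 147 and 218 TPM with OK432 and 55.4, 67.5 and 58.4 TPM in controls of CT26. The 10 hypoxia genes summed to 6151, 4410.2 and 6776 TPM with OK432 and 4041, 4282 and 4195 TPM in CT26NYESO1 controls, 3196, 2696 and 3327 TPM with OK432 and 2631, 2822 and 2616 TPM in controls of LL2, and 2443, 2595 and 2759 TPM with OK432 and 2752, 2226 and 3071 TPM in controls of CT26. Muscle markers ran from 6.14 to 141 TPM in the CT26NYESO1 treated libraries and from 4.49 to 157 TPM in their controls. The part of these cell types and of hypoxia in the differences was not tested.

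**Figure D4:**
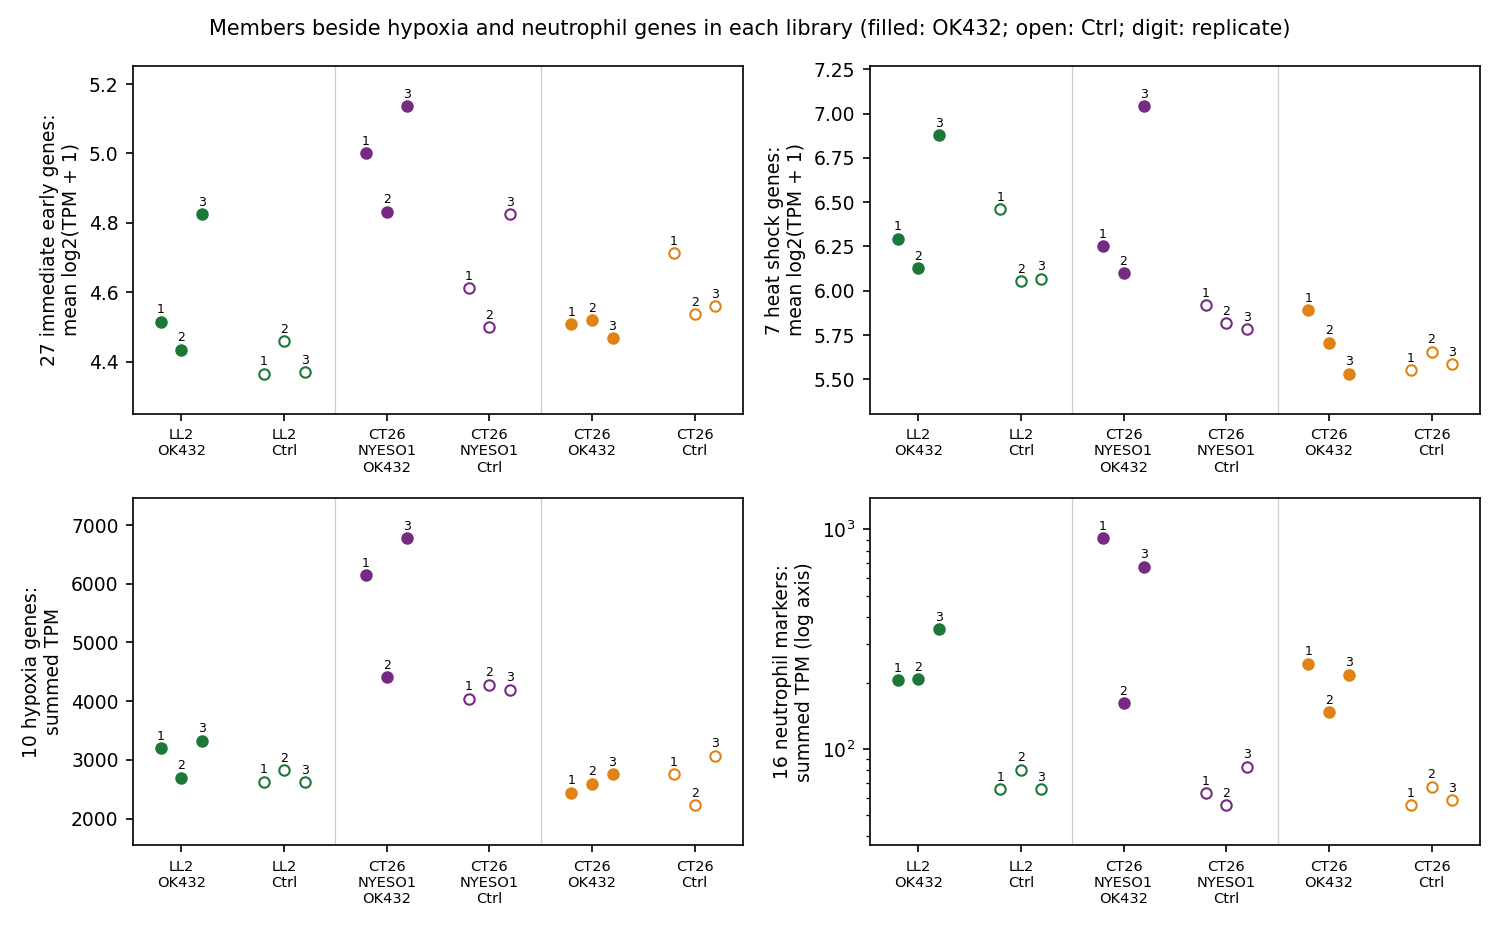
Mean log2(TPM + 1) of the 27 immediate early and the 7 heat shock genes, and summed TPM of 10 hypoxia genes and of 16 neutrophil markers (log axis), in each library, with OK432 as filled points left of Ctrl as open points. In CT26NYESO1 the treated replicates 1 and 3 are above replicate 2 in all 4 panels.

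The second comparison asks how far the lines themselves differed, in control tumours. The mean Egr1 level of LL2 controls was 10.7 times below that of CT26 controls, and CT26 controls had the most Dusp1, while the inducible HSP70 genes were lowest in CT26. Limma called 23 of the 34 genes between LL2 and CT26 controls (11 higher, 12 lower in LL2), 21 between LL2 and CT26NYESO1 (10 higher, 11 lower in LL2) and 19 between CT26NYESO1 and CT26 (9 higher, 10 lower in CT26NYESO1). Of all genes, limma called 68.8% between LL2 and CT26 (29.1% higher, 39.7% lower in LL2), 66.3% between LL2 and CT26NYESO1 (38.8% higher, 27.5% lower) and 64.9% between CT26NYESO1 and CT26 (21.1% higher, 43.9% lower), so the shares of the 34 genes were near this background. Groups did not overlap for 13 genes above and 12 below in LL2 against CT26 (31.1% and 41.0% of all genes), for 11 and 14 in LL2 against CT26NYESO1 (41.0% and 28.9%) and for 12 and 11 in CT26NYESO1 against CT26 (22.3% and 45.2%). The 3 comparisons share their control groups. In all, 29 of the 34 were called in at least 1 of the 3 comparisons and 9 in all 3, and Atf3, Fos, Jund, Dusp5 and Trib1 in none, on the deposited values. The matching shares of all genes were not computed, so these counts have no background and are not read as particular to the 34. Fibroblast markers summed to 3826, 3129 and 3695 TPM in LL2 controls, 1561, 1751 and 1331 TPM in CT26NYESO1 controls and 9388, 9119 and 6264 TPM in CT26 controls. Single markers went both ways: of 10, 7 were called lower and 1 higher in CT26NYESO1 than in CT26. In LL2, 6 were called lower and 3 higher than in CT26, and 4 lower and 5 higher than in CT26NYESO1. Of 10 endothelial markers, 8 were called lower and 1 higher in LL2 than in CT26 and 9 lower in CT26NYESO1 than in CT26 (median log2 differences −1.80 and −2.06). Of 10 monocyte and macrophage markers 8 were called lower in LL2 than in CT26, and of 9 muscle markers 8 were called higher (median 3.14). Of 10 hypoxia genes, 7 were called higher and 2 lower in CT26NYESO1 than in CT26. In LL2 against CT26NYESO1, 2 hypoxia genes were called higher and 6 lower, 7 endothelial markers higher and 0 lower, and 8 monocyte and macrophage markers lower and 0 higher. Of 10 T and NK cell markers, 10 were called lower in LL2 than in CT26NYESO1 and 5 lower than in CT26. In CT26NYESO1, 4 of these 10 were called higher than in CT26. The part of these in the differences was not tested.

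**Figure D5:**
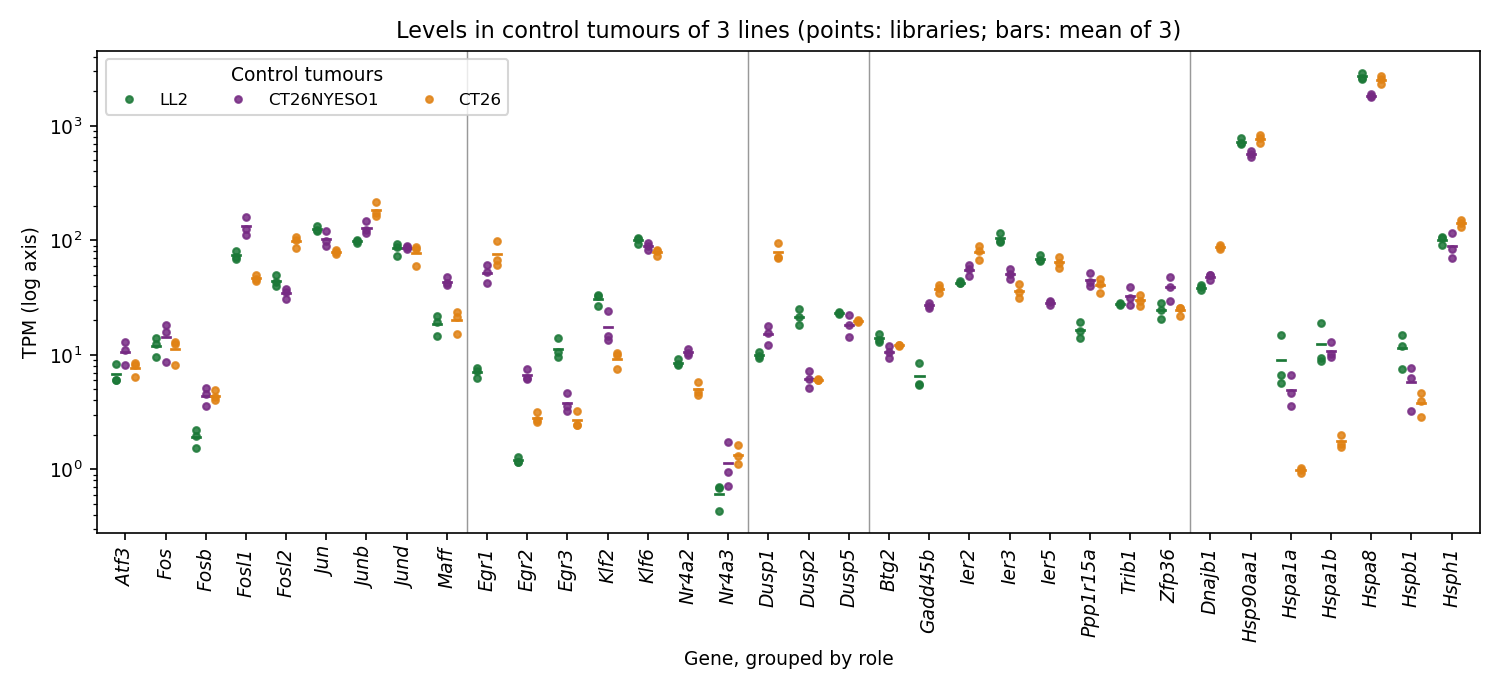
TPM (log axis) of the 34 genes in the control libraries of LL2, CT26NYESO1 and CT26, 3 points and a bar at the mean for each line. Egr1, Gadd45b and Egr2 are lowest in LL2, Dusp1 is highest in CT26, and Hspa1a and Hspa1b are lowest in CT26.

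Egr1 had the widest range of the transcription factors. It was 7.75, 7.25 and 6.22 TPM in LL2 controls, 53, 42.8 and 60.7 TPM in CT26NYESO1 controls and 99.2, 60.9 and 67.4 TPM in CT26 controls, with no overlap between LL2 and the other lines. The log2 difference was −3.22 ± 0.18 for LL2 minus CT26 (limma adjusted p = 1.91e-10) and −2.71 ± 0.18 for LL2 minus CT26NYESO1 (2.17e-09). Egr2, which shares the EGR zinc fingers, was 1.16, 1.16 and 1.29 TPM in LL2, 6.19, 6.3 and 7.57 TPM in CT26NYESO1 and 3.19, 2.57 and 2.67 TPM in CT26, a log2 difference of −1.80 ± 0.17 between LL2 and CT26NYESO1 and of 1.01 ± 0.17 between CT26NYESO1 and CT26. Egr3 ran the other way and was highest in LL2, at 13.9, 9.51 and 10.6 TPM, against 3.26, 3.58 and 4.61 TPM in CT26NYESO1 and 3.22, 2.43 and 2.46 TPM in CT26 (1.73 ± 0.19 for LL2 minus CT26, 1.35 ± 0.19 for LL2 minus CT26NYESO1). Klf2 was also highest in LL2, by 1.64 over CT26 and 0.83 over CT26NYESO1. Nr4a2 was highest in CT26NYESO1 and Nr4a3 was called lower in LL2 than in CT26 (−0.54).

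Fosl1 and Fosl2 had opposite orders in the CT26 lines. Fosl1 averaged 74.1 ± 6.48 TPM in LL2 controls, 133 ± 24.8 TPM in CT26NYESO1 controls and 46.6 ± 2.8 TPM in CT26 controls (SD, n = 3 each), and its libraries were 112, 126 and 160.2 TPM in CT26NYESO1 against 45.7, 44.4 and 49.7 TPM in CT26 (1.48 ± 0.16, limma adjusted p = 4.78e-07). Fosl2 was 30.5, 35.5 and 37.5 TPM in CT26NYESO1 against 101, 108 and 86.2 TPM in CT26 (−1.49 ± 0.14, 6.92e-08). The groups did not overlap for either gene. Maff, a small MAF partner without a transactivation domain, was 14.7, 21.7 and 19.5 TPM in LL2, 42, 40.4 and 47.9 TPM in CT26NYESO1 and 21.2, 15.2 and 23.6 TPM in CT26 (1.10 ± 0.18 for CT26NYESO1 minus CT26). Fosb was lowest in LL2, at 1.9 ± 0.335 TPM against 4.4 ± 0.793 TPM in CT26NYESO1 and 4.41 ± 0.47 TPM in CT26 (SD, n = 3 each). Jun was highest and Junb lowest in LL2, with log2 differences from CT26 of 0.66 and −0.89.

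Dusp1 was 10.6, 9.4 and 9.69 TPM in LL2 controls, 15.5, 12.2 and 17.8 TPM in CT26NYESO1 controls and 94.8, 69.7 and 70.9 TPM in CT26 controls. CT26 was above both other lines in every library, with log2 differences of −2.85 ± 0.28 for LL2 minus CT26 (limma adjusted p = 3.25e-07) and −2.30 ± 0.28 for CT26NYESO1 minus CT26 (3.89e-06). LL2 and CT26NYESO1 did not differ beyond the test (−0.56, 0.0908). Dusp2 was instead highest in LL2, 25, 18.2 and 21.5 TPM in LL2 against 6.09, 5.14 and 7.21 TPM in CT26NYESO1 and 6.18, 5.99 and 6.02 TPM in CT26, 1.66 ± 0.13 for LL2 minus CT26 and 1.66 ± 0.13 for LL2 minus CT26NYESO1. Dusp5 was called in none of the 3 comparisons of the deposited values. Dusp1 lies over other annotated genes, Ergic1 among them, and whether counting used strand is not stated, so reads of overlapping genes may be shared. Jun, Junb, Jund, Fosl1, Atf3, Dusp5, Zfp36, Ppp1r15a and Hspa1a also overlap a gene on the other strand, and Hspa8 overlaps Snord14 genes on its own strand.

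Gadd45b was 5.42, 8.54 and 5.54 TPM in LL2 controls, 28.5, 26.8 and 25.9 TPM in CT26NYESO1 controls and 35, 40.6 and 38.2 TPM in CT26 controls, with LL2 below the others throughout (−2.40 ± 0.28 for LL2 minus CT26, −1.93 ± 0.28 for LL2 minus CT26NYESO1). Ppp1r15a was likewise lowest in LL2, at 14.1, 16.3 and 19.2 TPM against 52, 40.2 and 43.3 TPM in CT26NYESO1 and 45.5, 34.5 and 41.8 TPM in CT26 (−1.25 ± 0.19 and −1.40 ± 0.19). Ier3 was highest in LL2, at 98, 117 and 96.6 TPM against 45.6, 50.4 and 56.1 TPM in CT26NYESO1 and 41.5, 31.2 and 35.1 TPM in CT26 (1.02 ± 0.32 for LL2 minus CT26NYESO1, 1.51 ± 0.32 for LL2 minus CT26). Ier5, a partner of HSF1 and protein phosphatase 2A, was lowest in CT26NYESO1, with 67.6, 74.6 and 65.5 TPM in LL2, 29.7, 27 and 29.1 TPM in CT26NYESO1 and 71.3, 57.6 and 63.8 TPM in CT26 (1.25 ± 0.11 for LL2 minus CT26NYESO1, −1.14 ± 0.11 for CT26NYESO1 minus CT26). Ier2 was lowest in LL2 and highest in CT26, each step called by limma (−0.50 for CT26NYESO1 minus CT26, −0.36 for LL2 minus CT26NYESO1).

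Among the heat shock genes, Hspa1a and Hspa1b were lowest in CT26, while Dnajb1, Hsph1 and Hsp90aa1 had their highest mean there. Hspa1b was 18.9, 9.39 and 8.86 TPM in LL2 controls, 12.9, 10.1 and 9.52 TPM in CT26NYESO1 controls and 1.58, 1.67 and 2.01 TPM in CT26 controls, 2.21 ± 0.54 for LL2 minus CT26 and 2.1 ± 0.54 for CT26NYESO1 minus CT26 (limma adjusted p = 0.00222 and 0.00347). Hspa1a was 14.9, 5.64 and 6.64 TPM in LL2, 6.7, 4.66 and 3.54 TPM in CT26NYESO1 and 1.03, 0.919 and 0.982 TPM in CT26 (2.23 ± 0.51 for LL2 minus CT26), and the sum of the copies gave 2.49 ± 0.55 for LL2 minus CT26 and 2.15 ± 0.55 for CT26NYESO1 minus CT26. LL2 and CT26NYESO1 overlapped for the sum (0.34, adjusted p = 0.611), and replicate 1 was the highest of the LL2 controls. Hspb1 averaged 11.4 ± 3.65 TPM in LL2, 5.76 ± 2.3 TPM in CT26NYESO1 and 3.81 ± 0.867 TPM in CT26 (SD, n = 3 each), called between LL2 and CT26 only (1.34 ± 0.52, limma adjusted p = 0.0339). Dnajb1 was lower in both other lines than in CT26, at 40.6, 38.9 and 36.6 TPM in LL2, 44.9, 49.3 and 49.8 TPM in CT26NYESO1 and 87.6, 90.5 and 83.5 TPM in CT26 (−1.15 ± 0.15 and −0.85 ± 0.15). Hspa8 averaged 2702 ± 187 TPM in LL2, 1835 ± 73.3 TPM in CT26NYESO1 and 2538 ± 207 TPM in CT26, and Hsp90aa1 727 ± 43, 572 ± 34 and 770.2 ± 58.5 TPM in the same order (SD, n = 3 each), both called lower in CT26NYESO1 than in either other line.

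The directions of small differences between lines depended on scaling. Under median-of-ratios rescaling the median of all genes for CT26NYESO1 minus CT26 was 0, against −0.18 as deposited, and the share of calls that were higher in CT26NYESO1 was 49.3%, against 32.5%. With that shift taken out, 12 of the 34 genes were called higher and 6 lower in CT26NYESO1, and the calls of Junb, Egr1, Hsph1 and Hsp90aa1 ended. Quantile normalization gave 13 higher and 9 lower and ended the call of Egr1. Calls were also gained: Jund, Egr3 and Klf6 were called higher in CT26NYESO1 than in CT26 under both scalings and Atf3 under quantile normalization. Of the genes called in no comparison as deposited, Dusp5 and Jund were called higher in LL2 than in CT26 under quantile normalization, and Atf3 lower in LL2 than in CT26NYESO1 under median-of-ratios rescaling. For LL2 minus CT26 the share higher was 42.2% as deposited and 49.7% rescaled, and for LL2 minus CT26NYESO1 58.5% and 49.8%, where the calls of Fosl2, Jun, Btg2 and Hsp90aa1 ended. Hspa8 changed sides: 0.09 and not called for LL2 minus CT26 as deposited, 0.19 and called under median-of-ratios scaling, and −0.32 and called with quantile normalization. Of the OK432 calls in CT26NYESO1, 61.6% were higher on the deposited values, 74.1% with median-of-ratios and 79.5% with quantile scaling, with 0 of the 34 genes called in each.

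Genes around the 34 in the same pathways were read from 8 lists. With OK-432, limma called 3 of their 141 genes, all in CT26NYESO1. Of all genes, limma called 0.666% in CT26NYESO1, 0.0178% in LL2 and 0.00% in CT26. Spred3, an inhibitor of RAS to ERK signalling, was 33 ± 0.669 TPM with OK432 and 24.7 ± 0.999 TPM in controls (SD, n = 3 each; log2 difference 0.40 ± 0.08, adjusted p = 0.0413). Dnajb2, an HSP40, was 42.9 ± 1.54 TPM with OK432 and 33.3 ± 1.91 TPM in controls (0.35 ± 0.08, 0.0462). Hspbp1, an HSP70 exchange factor, was lower at 42.2 ± 0.368 TPM with OK432 and 54.5 ± 3.58 TPM in controls (−0.36 ± 0.07, 0.0345). Each call ended when any 1 of the 3 CT26NYESO1 controls, CT26NYESO1 OK432 replicate 3 or LL2 Ctrl replicate 3 was left out, without the low-value filter, with plain empirical Bayes and with only the compared groups fitted. Of 30 other immediate early genes, 0 were called in any line, with a median log2 difference of 0.17 in LL2, 0.30 in CT26NYESO1 and −0.03 in CT26.

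Between control tumours, the 13 ERK feedback genes, which ERK signalling induces and which mostly restrain it, were all called higher in LL2 than in CT26 (median log2 difference 1.42, beside −0.08 for all genes and 29.1% of all genes called higher). Spry2, a Sprouty inhibitor of receptor signalling, was 84 ± 6.08 TPM in LL2 and 7.24 ± 1.23 TPM in CT26 (3.38 ± 0.11), and the ETS factor Etv1 was 50.1 ± 3.98 TPM in LL2 and 2.34 ± 0.212 TPM in CT26 (3.94 ± 0.09). CT26NYESO1 had 9 of the 13 higher and 1 lower than CT26 (median 1.12, beside 21.1% of all genes called higher and 43.9% lower). Dusp4, an ERK phosphatase, was 57.3 ± 3.21 TPM in CT26NYESO1 and 6.14 ± 1.32 TPM in CT26 (3.05 ± 0.18). LL2 had 9 higher and 2 lower than CT26NYESO1, beside 38.8% of all genes called higher and 27.5% lower. Of the 18 genes of the ERK cascade and serum response, 5 were higher and 11 lower in LL2 than in CT26 (median −0.21, beside 29.1% of all genes called higher and 39.7% lower).

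Of 30 other immediate early genes, 10 were higher and 14 lower in LL2 than in CT26, and 9 were higher and 9 lower in CT26NYESO1 than in CT26, beside 29.1% and 39.7% of all genes for LL2 and 21.1% and 43.9% for CT26NYESO1. Ccn2, a matricellular target of serum response factor and YAP, was 3.92 ± 0.732 TPM in LL2 and 72.4 ± 12.3 TPM in CT26 (−3.90 ± 0.26), and Areg, an EGF receptor ligand, was 29 ± 0.488 TPM in LL2 and 0.39 ± 0.27 TPM in CT26 (4.45 ± 0.20). Of 20 heat shock regulators and cochaperones, 13 were lower and 2 higher in CT26NYESO1 than in CT26 (median −0.23, beside −0.18 for all genes). Of all genes, 43.9% were called lower and 21.1% higher there. Hsf1 was 78.7 ± 2.27 TPM in LL2, 68.2 ± 4.29 TPM in CT26NYESO1 and 191 ± 11.4 TPM in CT26 (−1.26 ± 0.07 and −1.47 ± 0.07 against CT26). In CT26 controls, Hspa1a, Hspa1b and Hspb1 had their lowest mean of the lines, and Dnajb1, Hsph1 and Hsp90aa1 their highest. The part of Hsf1 in these orders was not tested. Of the 13 integrated stress response genes, to which Atf3 and Ppp1r15a are linked as ATF4 targets, 11 were lower and 2 higher in LL2 than in CT26NYESO1 (median −1.21, beside 0.10 for all genes). In that comparison 27.5% of all genes were called lower and 38.8% higher. Atf5 was 27.9 ± 1.39 TPM in LL2 and 196 ± 9.57 TPM in CT26NYESO1 (−2.77 ± 0.12), and Chac1, a glutathione-degrading enzyme, 2.67 ± 1.9 TPM in LL2 and 19 ± 2.09 TPM in CT26NYESO1 (−2.57 ± 0.30). In LL2 against CT26, where 29.1% of all genes were called higher and 39.7% lower, 4 of 16 stress kinase pathway genes were higher and 9 lower, 6 of 17 other cytosolic chaperones were higher and 6 lower, and 4 of 14 mitochondrial and ER chaperones were higher and 8 lower.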

How the data were processed

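Per the labels' protocols, RNA from bulk tumours went into a TruSeq Stranded mRNA preparation. The authors deposited 1 table of TPM values with 55291 genes and 18 libraries, each summing to 1000000, and every column was matched to a sample by its title. Trim Galore 0.6.5, STAR 2.7.3a, StringTie 2.1.2 and mm10 are named in the submitters' processing notes, which leave the annotation and strand setting unstated. TPM keeps no read depth, and because the total is fixed, abundant genes that change shift the rest.

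Values were taken as log2(TPM + 1), which understates changes of low genes. Genes with at least 1 TPM in at least 3 libraries entered the test, which was run in limma 3.58.1 under R 4.3.3 (trended, robust empirical Bayes) in 1 fit of 6 group means, with 12 residual degrees of freedom, with a call at p under 0.05 after Benjamini-Hochberg adjustment over all 16816 genes. Every adjusted p is from limma, every error of a log2 difference is a standard error, and replicates are numbered by the labels. The procedure was tested on simulated data. Alternatives changed the pseudocount, the filter, the scaling, the shrinkage, the samples fitted, a replicate block and the sum of Hspa1a and Hspa1b, or left out each library. The members and all lists were chosen with earlier results of these data known, so no count over them is independent support.

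Genes given with library values are the 5 largest OK432 differences per line and, among genes with a mean of at least 5 TPM in a group, the 4 largest called rises and the 4 largest called falls per pair of control groups. Other genes with library values (Fosl2 with OK432, Junb, Fos, Egr1 with OK432, Gadd45b, Ppp1r15a and Zfp36 with OK432, Dnajb1 and Hsph1) were added after their values were seen. From the pathway lists up to 3 called genes per comparison could be named. Gene positions and overlaps are from GENCODE M21 on mm10, in which 53292 of the symbols were found.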

Additional observations from a re-analysis of the deposited data

Results flagged for a closer look

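Nr4a2 and Ier5 were singled out because every OK432 library lay above every control in CT26NYESO1 tumours and below every control in CT26 tumours. For Nr4a2 the effect in CT26NYESO1 minus that in CT26 was 0.77 ± 0.15 on the log2 scale (limma adjusted p = 0.231), and for Ier5 it was 0.56 ± 0.15 (adjusted p = 0.439), so neither difference passed the test. Ier5 was 39.4, 31.7 and 34 TPM with OK432 and 29.7, 27 and 29.1 TPM in CT26NYESO1 controls, and 51.3, 56.7 and 49.6 TPM with OK432 and 71.3, 57.6 and 63.8 TPM in controls of CT26. Without CT26NYESO1 OK432 replicate 2, Nr4a2 was called (0.86, adjusted p = 0.0194).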

How the results depend on the processing

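The 114 results for single genes counted here are those of members picked for large differences and of called pathway genes. Other comparisons of the members are left out of this count, and several changed call with scaling, as given above. Among the 114, 1018 of 1028 values under other settings kept their direction and call. The other 10, all of Spred3, Hspbp1 and Dnajb2 with OK432 in CT26NYESO1, kept the direction only. With 1 library left out, 2014 of 2052 kept both, 32 lost the call, 5 gained it and 1 reversed: Hspb1 with OK432 in LL2 ranged from −0.26, without LL2 OK432 replicate 3, to 0.81. Genes called moved as follows, and the cause was not tested. Without a low-value filter CT26 had 22 such genes, CT26NYESO1 had 42 and LL2 had 18, with 6, 16 and 11 for the effect in CT26NYESO1 minus CT26, LL2 minus CT26 and LL2 minus CT26NYESO1. With only the compared groups fitted they numbered 4, 0 and 9, and 1, 2 and 3 in the same orders, and the average had no such fit. Plain empirical Bayes called 56 in CT26NYESO1. LL2 had 1 with log2(TPM + 0.1), the average 14 with log2(TPM + 5) and 17 with a filter of 5 TPM, and CT26NYESO1 minus CT26 had 2 with log2(TPM + 0.1) and 1 each with log2(TPM + 5), a filter of 5 TPM, median-of-ratios rescaling and quantile normalization. Members called moved to 1 in CT26NYESO1 with a filter of 5 TPM. Leaving out 1 library, genes called ranged from 0 to 8 in CT26, 4 to 673 in CT26NYESO1, 1 to 15 in LL2, 20 to 141 in the average, 0 to 99 for CT26NYESO1 minus CT26, 1 to 2 for LL2 minus CT26 and 1 to 57 for LL2 minus CT26NYESO1, the highest without CT26NYESO1 OK432 replicate 2 in all but LL2. For LL2 minus CT26 the same highest count was also reached without CT26 Ctrl replicate 2 and without LL2 OK432 replicate 1. Members called ranged from 0 to 14 in CT26NYESO1, 0 to 3 in the average and 0 to 2 for CT26NYESO1 minus CT26. Between controls, genes called stayed within 10201 to 11645 and members within 18 to 25.

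Replicate numbers were not treated as pairs: same-numbered libraries deviated together at r over 0.1 in 4 of 45 pairs (−0.24 to 0.22), and 3 of 18 libraries correlated best with their own number. The replicate block called 0 members with OK432, 93 genes in CT26NYESO1, 1 in LL2 and 30 in the average, and Dnajb2 had an adjusted p of 0.0593. Depth is unknown, so the precision of low values such as those of Nr4a3 cannot be given.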
